A study of Mus musculus with 5 samples.

Results

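The genes of the cytosolic ribosome's proteins were examined in embryonic mouse cortical cells that had been made to express Ptf1a. They were taken by symbol from the authors' gene table (Rpl and Rps followed by a number, Rplp0, Rplp1, Rplp2 and Rpsa, with the Rps6k kinases left out). The rule uses symbols alone, though the family was proposed with earlier results of these data known. It found 83 of 23234 genes, 50 of the large subunit and 33 of the small subunit, and 80 of them carried the authors' test. RNA was sequenced from GFP-positive cells sorted from CD1 cortices that were electroporated at E12.5 and harvested at E15.5 (embryonic days). The Ptf1a group (3 samples) received a construct that misexpressed Ptf1a with GFP, and the control group (2 samples) a GFP-only construct; each sample pooled 3 to 6 brains, and all cells in both groups carried GFP. The promoter that drove the constructs is not given in the sources used here, and only cells that took up plasmid and still glowed were measured. The labels call the cells embryonic cortical pyramidal cells.

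A ribosome joins a large and a small subunit, each a core of ribosomal RNA dressed with many different proteins that are needed at about equal copy number. Ribosomal protein mRNAs are among the most abundant of any cell. They begin with a C followed by a run of pyrimidines, the terminal oligopyrimidine (TOP) motif, through which mTOR signalling controls their translation. In the developing cortex, progenitors that grow and divide are known for higher ribosome production than the neurons they generate.

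Expression is given in FPKM (fragments mapped, relative to transcript length and sequencing depth), a single merged value for each group, control first and Ptf1a second. No value per sample was analysed here, so a difference carries only the standard error implied by the authors' test (the deposited log2 fold divided by the deposited test statistic). The words rose and fell are kept for genes whose q in the authors' deposited table was under 0.05. Log2 differences are log2(FPKM + 0.1) with Ptf1a minus that in the control. In such pools of cells, fewer cells of a type and less RNA per cell cannot be told apart. Nothing in the sources used here says that a group's samples came from separate litters or surgeries.

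Start sites of the members were looked at first, because nearly all members moved in the same direction. RefSeq's promoter table (build GRCm38.p6) held 62 of the 83 members, 1 of them under a newer symbol, with 73 start sites in all. The stretches below run 5′ to 3′ from 50 bases before the start site to 20 bases from it, on the gene's strand. Capitals mark 2 motifs: CTTTCC, searched on the gene's strand within 10 bases of the start and built like the pyrimidine-rich start of these genes, and CCGGAAG, an ETS-type motif searched on both strands (CTTCCGG is its reverse). Rps7, Rpl38 and Rpl35 are shown as the tested members with the largest falls, Rps27 and Rps27l as a pair whose members differed, and Rpl22l1 and Rpl7l1 as paralog forms at both ends of the range. RefSeq has a second start site for Rps27l, whose stretch holds neither motif.
Rps7, chr12:28635934-28636003, minus strand: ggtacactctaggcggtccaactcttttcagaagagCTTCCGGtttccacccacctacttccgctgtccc
Rpl38, chr11:114668530-114668599, plus strand: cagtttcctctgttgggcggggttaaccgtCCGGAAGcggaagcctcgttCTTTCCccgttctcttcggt
Rpl35, chr2:39005112-39005181, minus strand: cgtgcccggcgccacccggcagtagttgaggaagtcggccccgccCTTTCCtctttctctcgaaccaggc
Rps27, chr3:90213629-90213698, minus strand: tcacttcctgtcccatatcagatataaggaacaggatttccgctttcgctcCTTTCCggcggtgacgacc
Rps27l, chr9:66946036-66946105, plus strand: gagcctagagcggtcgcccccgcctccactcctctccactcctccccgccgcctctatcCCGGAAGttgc
Rpl22l1, chr3:28805458-28805527, plus strand: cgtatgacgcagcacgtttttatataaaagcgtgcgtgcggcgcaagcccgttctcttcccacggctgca
Rpl7l1, chr17:46782637-46782706, minus strand: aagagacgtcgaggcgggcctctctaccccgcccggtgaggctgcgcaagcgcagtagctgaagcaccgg

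CTTTCC lay within 10 bases of the start in 9 of the 73 member promoters (12.3%), against 0.837% of all 32851 promoters in the table. CCGGAAG lay anywhere in the 300 bases of 35.6% of member promoters and of 8.86% of all. ATGGCGG, a core that the factor YY1 is known to bind, was held by 16.4% of member promoters and by 4.05% of all, both strands searched. The general E-box CANNTG, the class of motif to which Ptf1a and other basic helix-loop-helix factors bind, was found in 47.9% of member promoters and 72.3% of all. CACGTG, an E-box that is also a CANNTG match, was held by 8.22% and 7.15%, and TATAAA by 9.59% and 13.6%. Among tested members, the 24 with CCGGAAG had a median log2 difference of -0.68 and the 35 without it -0.52. TATAAA split them likewise (-0.70 for 7 with it, -0.53 for 52 without), and CTTTCC less (-0.64 for 8, -0.55 for 51). ATGGCGG (-0.50 for 10, -0.56 for 49) and CACGTG (-0.45 for 5, -0.56 for 54) ran the other way. The 29 with CANNTG had -0.55 and the 30 without it -0.56. These are matches of letters in a window, and no binding was measured.

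Ribosomal protein transcripts were lower with Ptf1a almost throughout the family. Of the 80 tested members 74 fell, 0 rose and 6 were not called; over all 11876 tested genes 19.1% fell and 18.7% rose. The median log2 difference of the members was -0.58, or 67.0% of the control level, against -0.01 over all tested genes. By value, 79 members were lower with Ptf1a and 1 was higher. At an unadjusted deposited p under 0.05, 76 members were lower and 1 was higher. The share of all tested genes at that p was not counted. With a two-sided normal p computed from the test statistic and adjusted over all tested genes, 41 members were called lower and 0 higher. By that measure 2.79% of all tested genes were called lower. The falls were modest for single genes: 36 of the 74 reached 1.5-fold, where 7.7% of all tested genes fell by as much.

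**Figure D1:**
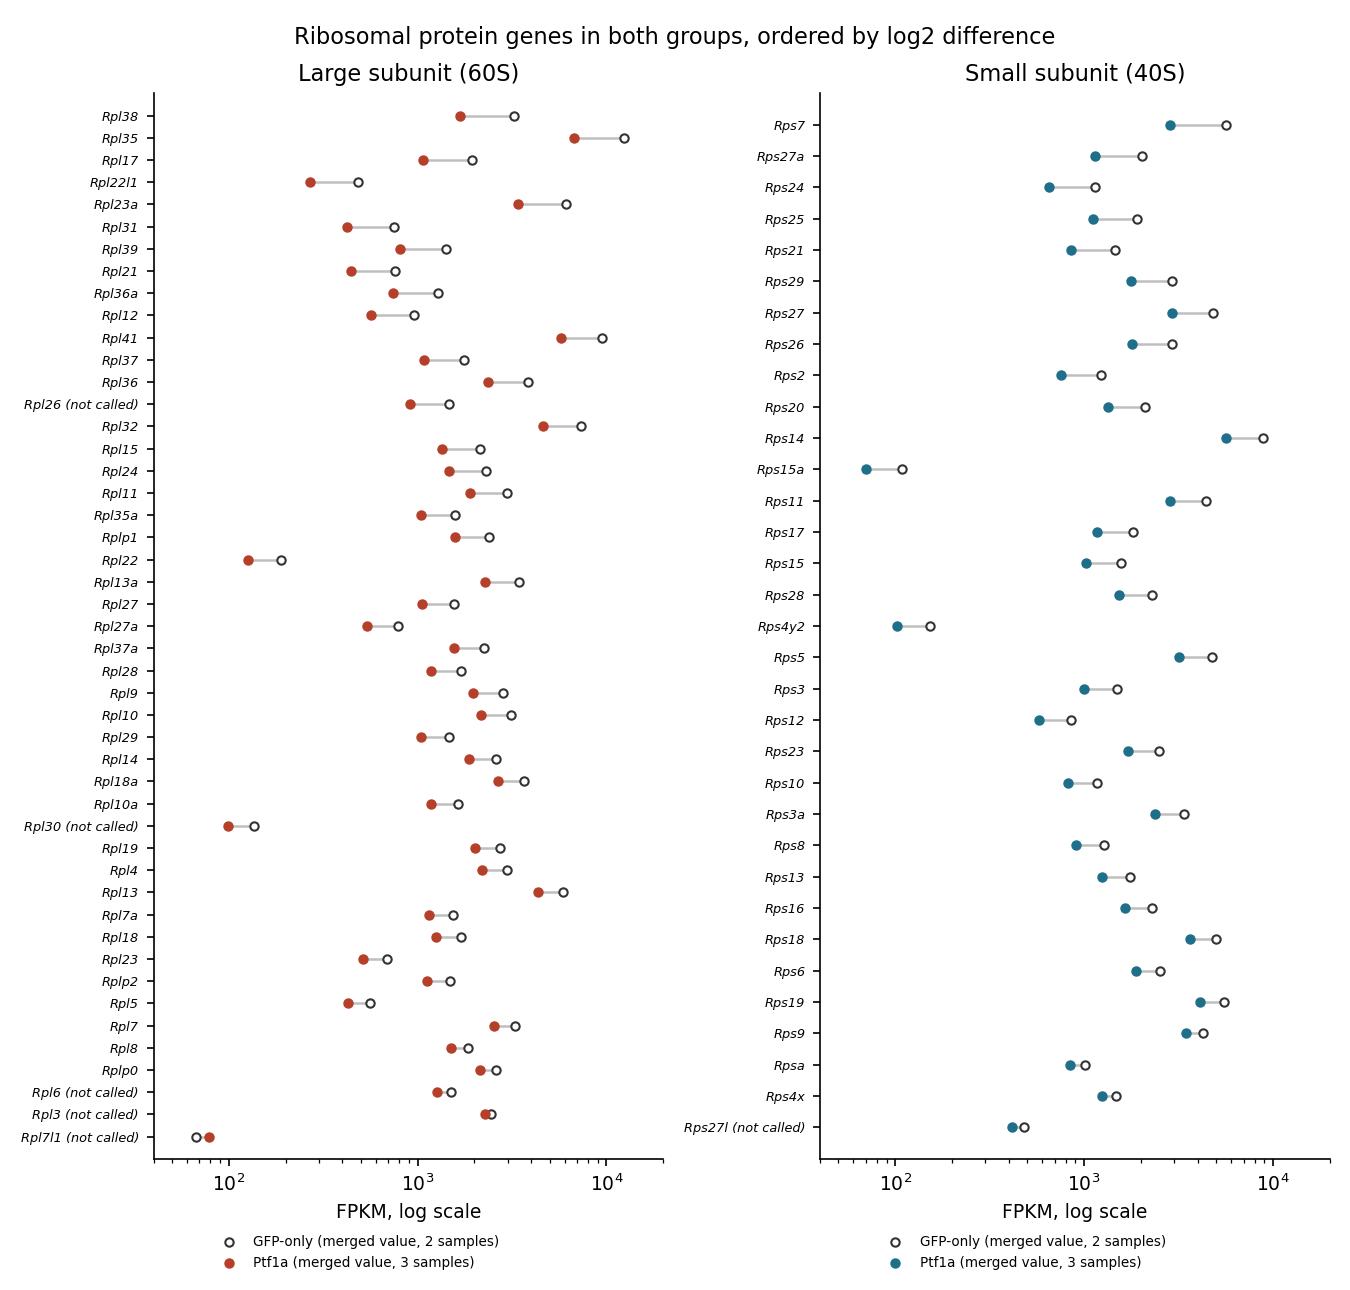
Merged FPKM of each of the 80 tested members (log axis) in the GFP-only group (open circles) and the Ptf1a group (filled circles), large subunit left and small subunit right, ordered by log2 difference with the largest fall on top; members that did not pass the deposited test are marked as not called. The filled circle lies left of the open one for 79 members, and only Rpl7l1 at the bottom left runs the other way.

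The family took up a smaller part of the measured expression. Summed over the 83 members, FPKM went from 204351 to 135386, which was 22.3% of the sum over all genes in the control and 18.0% with Ptf1a. The large subunit's genes went from 13.01% to 10.5% and the small subunit's from 9.28% to 7.52%. The sum over all genes itself fell from 916612 to 752115 FPKM, and the members' fall of 68965 was part of that 164496. The sum over all genes was also touched by 16 rows marked as having too much data, all listed at 0 in at least 1 group. Tested genes outside the family held such values too. At a mean of 1000 FPKM or more their log2 differences ran from -15.8 to 17.6. Their lowest value was 0 in each group, and their highest with Ptf1a was 19241 FPKM. Such rows also enter sums over tested rows only. With each group rescaled to the same total, all tested genes shifted upwards by 0.28 on the log2 scale, the members' median was -0.29, and 73 members remained below 0 and 7 lay above it.

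Cell type markers moved beside this fall; Map2, Hbb-b1 and Hba-a1 of these lists were not used here. Pyramidal neuron markers were present and fell in 5 of 5 (Tbr1, Neurod2, Neurod6, Bcl11b and Fezf2, summed FPKM 1808 and 1257), and general neuron markers fell in 4 of 4 tested (2460 and 1285). Cortical progenitor markers rose in 8 of 8 (1801 and 3455), and markers of dividing cells in 6 of 6 (83.2 and 173). Interneuron markers rose in 4 of 5 tested and stood at a sum of 7.11 and 15.6. Red blood cell markers fell in 3 of 5 (149 and 62.1), microglial markers fell in 1 of 4 tested (14.6 and 9.24), and endothelial markers summed to 3.05 and 4.50 with 1 tested and 0 called. Beside these counts, 19.1% of all tested genes fell and 18.7% rose. Of these markers only Tubb3, a general neuron marker, was listed at 0, in the control, in a row marked as having too much data. With Ptf1a it was listed at 4850 FPKM, and it was left out of the neuron sums above. Ptf1a itself stood at 0.210 and 38.9 FPKM. The part of any of these shifts in the ribosomal protein result was not tested.

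Genes of both subunits fell. Of the large subunit's 47 tested genes 42 fell, with a median log2 difference of -0.55, and of the small subunit's 33 tested genes 32 fell, with a median of -0.58. Their middle ranges overlapped, from -0.71 to -0.43 for the large subunit and from -0.70 to -0.48 for the small, and a difference between subunits was not tested. Without the paralog forms, 41 of 45 large subunit genes and 31 of 31 small subunit genes fell. The family kept close together: 63 of the 80 tested members lay within 0.25 of its median, and 54 within their own implied standard error of it. The SD over members was 0.20, about the size of the median implied standard error of a single member (0.20). By that error, much of the order among members is not resolved. The implied error and the deposited p do not match when the statistic is read as normal. Rpsa, at -0.27 ± 0.23, had a deposited p of 0.00735 in the authors' test. The 4 members beyond 2 implied standard errors were Rps7 below the median (-2.09 errors), and Rpl3 (2.03), Rps27l (2.33) and Rpl7l1 (3.65) above it. All but Rpl7l1 lay close to that bound, and whether any of them departs from the family was not tested.

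The largest fall of a tested member was that of Rps7, a small subunit protein (chromosome 12, 29315712 to 29320818, mm9). It went from 5668 to 2838 FPKM, with a log2 difference of -0.998 ± 0.20 (implied SE; q = 0.000329 in the authors' deposited table). Rpl38, a large subunit protein known for its part in axial patterning of the mouse embryo (chromosome 11, 114529857 to 114533645, mm9), followed with 3224 and 1684 FPKM, -0.94 ± 0.23. Rpl35, a protein at the exit of the tunnel through which the new peptide leaves (chromosome 2, 38853829 to 38860651, mm9), went from 12403 to 6747 FPKM, -0.88 ± 0.24. With Ptf1a the 3 stood at 50.1%, 52.2% and 54.4% of the control. Their q is the smallest in the authors' deposited table, and 63 of the 80 tested members share it.

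The other members among the 12 largest called falls came from both subunits. Of the large subunit, Rpl17 went from 1941 to 1070 FPKM, Rpl23a from 6074 to 3401 FPKM, Rpl31 from 750 to 422 FPKM and Rpl39 from 1408 to 805 FPKM, with log2 differences of -0.86, -0.84, -0.83 and -0.81. Rpl21 went from 764 to 444 FPKM (-0.78), and Rpl22l1 is described with its paralog. Of the small subunit, Rps24 went from 1145 to 651 FPKM (-0.82) and Rps25 from 1916 to 1111 FPKM (-0.79). Next after these 12, Rps21 and Rpl36a both differed by -0.78. Rps27a, which encodes a small subunit protein fused to ubiquitin and so also supplies free ubiquitin, went from 2031 to 1140 FPKM, -0.83 ± 0.17.

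The most abundant members held their order. Rpl35, Rpl41, Rps14 and Rpl32 held ranks 1, 2, 3 and 4 of the family in both groups. Rpl41, which encodes a very short basic peptide of the large subunit, went from 9529 to 5748 FPKM, Rps14 from 8853 to 5620 FPKM and Rpl32 from 7376 to 4604 FPKM. Rpl13 (5898 to 4364 FPKM) and Rps19 (5481 to 4124 FPKM), the latter known as a gene mutated in Diamond-Blackfan anaemia, fell less, by 0.43 and 0.41 on the log2 scale. Rpl23a and Rps7, at ranks 5 and 7 of the family in the control, were at ranks 9 and 12 with Ptf1a. In the control 66 members stood at 1000 FPKM or more and with Ptf1a 57.

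The stalk of the large subunit, which recruits the elongation factors, is built from Rplp0 and pairs of Rplp1 and Rplp2. All 3 fell. Rplp1 went from 2382 to 1577 FPKM (-0.60 ± 0.14), Rplp2 from 1483 to 1128 FPKM (-0.40 ± 0.22) and Rplp0, the base, from 2587 to 2146 FPKM (-0.27 ± 0.21; q = 0.0324 in the authors' deposited table). Rpl11 and Rpl5 travel together with the smallest ribosomal RNA and, outside the ribosome, hold back Mdm2, the ubiquitin ligase that destroys p53. Rpl11 went from 2961 to 1899 FPKM (-0.64 ± 0.16) and Rpl5 from 558 to 430 FPKM (-0.38 ± 0.22). Rpsa, a small subunit protein also described as a laminin receptor, stood at 1009 and 839 FPKM (-0.27 ± 0.23; q = 0.0233 in the authors' deposited table). Rplp0, Rpsa and Rps4x were called, but with each group rescaled to the same total their differences turned to 0.02, 0.02 and 0.03.

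The uncalled members were Rpl26, Rpl30, Rpl6, Rps27l, Rpl3 and Rpl7l1. Rpl26 (1463 and 912 FPKM) and Rpl30 (136 and 98.6 FPKM) differed as much as many called members, but their implied standard errors were 0.72 and 0.71, the largest of the family, against a median of 0.20. Each shared its locus with another row of the table. Rpl6 stood at 1497 and 1274 FPKM (q = 0.0586 in the authors' deposited table). Rpl3, which lies by the peptidyl transferase centre of the large subunit, stood at 2435 and 2275 FPKM, 93.4% of the control, a difference of -0.10 ± 0.24, which turns to 0.19 with both groups rescaled to the same total.

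The 4 tested paralog forms differed widely, with an SD of 0.47 against 0.18 over the other members. Rpl22l1 (chromosome 3, 28704433 to 28706337, mm9), a paralog that can replace Rpl22 in the large subunit and is known to be repressed by it, went from 484 to 269 FPKM (-0.85 ± 0.17), and Rpl22 from 190 to 127 FPKM (-0.59 ± 0.21). Both fell, and Rpl22l1 stood at 2.54 times Rpl22 in the control and 2.13 times with Ptf1a. The change in that ratio, -0.26 on the log2 scale (implied standard errors 0.17 for Rpl22l1 and 0.21 for Rpl22), was not tested.

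Rps27l, a small subunit paralog known as a p53 target, stood at 480 and 416 FPKM (-0.20 ± 0.16; q = 0.129 in the authors' deposited table). Its partner Rps27, which encodes nearly the same protein, fell from 4816 to 2907 FPKM (-0.73 ± 0.23). The partner was thus 10.0 times as abundant in the control and 6.98 times with Ptf1a. Rpl7l1 (chromosome 17, 46910856 to 46919605, mm9), related to Rpl7 and known for a role in ribosome assembly, was the lowest of the tested members in the control and the only tested member with a higher value in the Ptf1a group, 67.3 and 78.9 FPKM (0.23 ± 0.22; q = 0.0689 in the authors' deposited table). Rpl7 fell from 3262 to 2551 FPKM, so Rpl7 was 48.5 times Rpl7l1 in the control and 32.3 times with Ptf1a. Changes in these ratios were not tested.

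Rps4y2, a relative of the X-linked Rps4x that RefSeq now lists as Rps4l, a transcribed pseudogene, stood at 154 and 103 FPKM (-0.58 ± 0.45; q = 0.0213 in the authors' deposited table), in a locus that overlaps 4 other rows. Rps4x itself stood at 1480 and 1242 FPKM (-0.25 ± 0.18; q = 0.0347 in the authors' deposited table). The tissue-restricted forms Rpl10l, Rpl39l and Rpl3l, known from testis or striated muscle, had no test and were close to nothing. Rpl10l stood at 0.0558 and 0.0655 FPKM and Rpl39l at 0.273 and 0.0721 FPKM, and Rpl3l was listed at 0 in the control and stood at 0.00836 FPKM with Ptf1a. Their partners Rpl10 (3116 and 2180 FPKM), Rpl39 and Rpl3 supplied nearly all of the transcripts of each pair.

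Abundance moved with the result, and its part in it was not tested. The members lay among the most abundant genes, and 78 of the 80 were in the top 10% of tested genes by mean FPKM, which begins at 97.3 FPKM. Of the 1110 other genes in that top 10% 55.8% fell and 4.05% rose, with a median log2 difference of -0.30. Of the 95 other genes at a mean of 1000 FPKM or more 73.7% fell, with a median of -0.48; of the 62 members at that level 59 fell, with a median of -0.58. Set against the median of the other genes in the top 10%, the members' median was -0.28, and 71 members lay below that median and 9 above it.

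**Figure D2:**
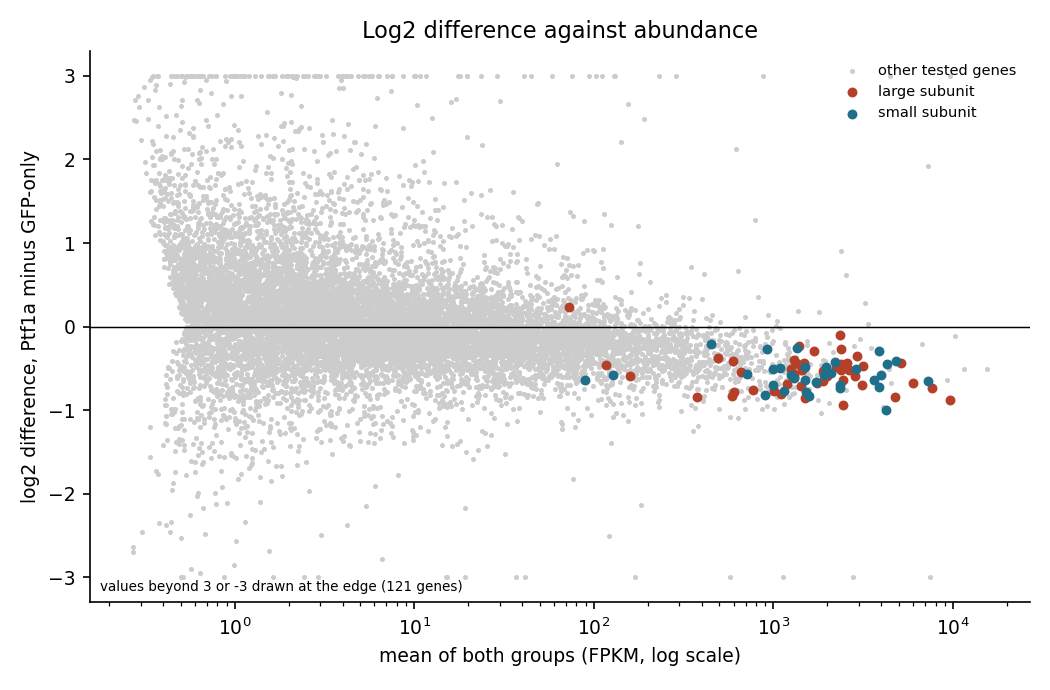
Log2 difference (Ptf1a minus GFP-only) against the mean of both groups in FPKM (log axis) for all tested genes, with large and small subunit members in colour and other genes in grey; 121 genes beyond 3 or -3 are drawn at the edge. The members sit at the right of the plot, where the grey cloud also lies mostly below 0.

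Transcript length moved with it as well. Lengths of the annotated principal transcripts (GENCODE M21) were found for 79 of the 80 tested members, with a median of 827 bases, against 1353 bases for the other genes of the top 10%. Among these other genes, the median log2 difference was -0.58 for the 60 transcripts of up to 600 bases, -0.42 for 259 of over 600 to 1000 bases, -0.27 for 519 of over 1000 to 2000 bases, -0.17 for 196 of over 2000 to 4000 bases and -0.10 for the 29 longer ones. Members gave -0.63 (21 genes), -0.54 (34 genes) and -0.47 (20 genes) in the first 3 of these classes. The 4 longer members were too few for a class: Rpl5 stood at -0.38, Rpl22 at -0.59, Rps20 at -0.66 and Rps15a, the longest by annotation at 5130 bases, at -0.64. The annotated length of Rps20, 3706 bases, exceeds its whole locus in the authors' data (chromosome 4, 3761620 to 3762747, mm9). An annotated length can thus differ from that of the transcript measured. Short members such as Rpl38 and Rps27 thus lay beside other short and abundant transcripts that were lower too.

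Abundance and length were then held close together. At a mean of 1000 FPKM or more, members of up to 600 bases had a median of -0.66 (18 genes) and other genes -0.72 (14 genes). From 600 to 1000 bases the medians were -0.55 (31 members) and -0.50 (27 other genes), and from 1000 to 2000 bases -0.45 (12 members) and -0.41 (34 other genes). Above that, 1 member, Rps20, whose annotated length exceeds its mm9 locus, stood at -0.66, and 9 other genes had a median of -0.18. Of the other genes 14 of 14, 25 of 27 and 24 of 34 fell in these classes, and of the members 17 of 18, 31 of 31 and 10 of 12.

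**Figure D3:**
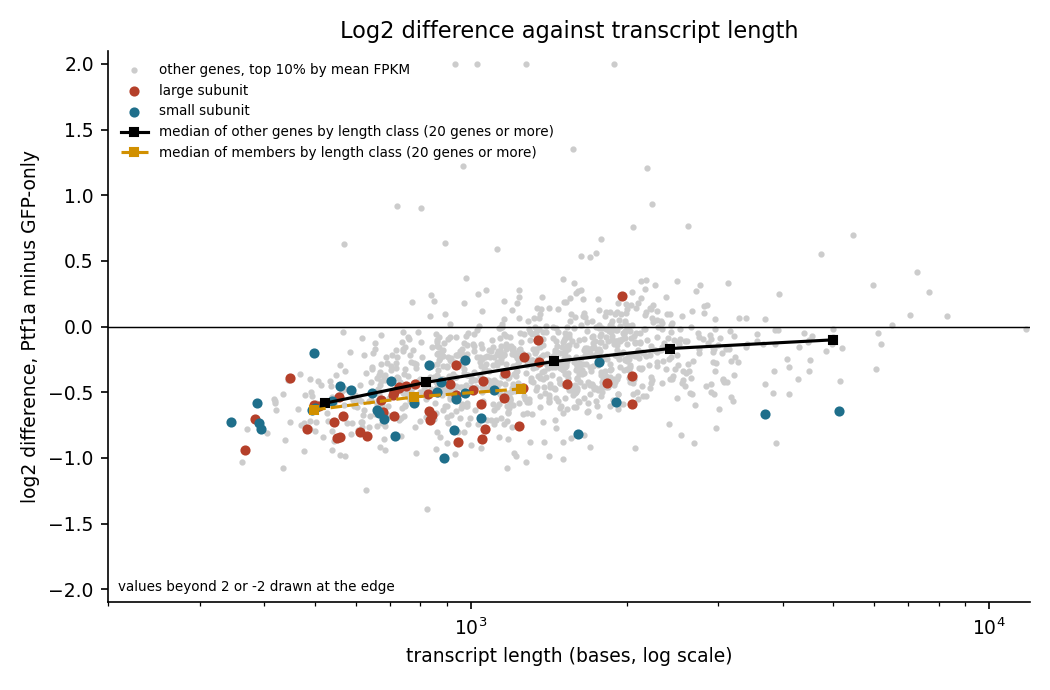
Log2 difference (Ptf1a minus GFP-only) against transcript length in bases (log axis) for members in colour and for the other genes of the top 10% by mean FPKM in grey, with the median of each length class that holds 20 genes or more. Both medians climb towards 0 as transcripts get longer, from -0.58 to -0.10 for other genes and from -0.63 to -0.47 for members.

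Within the family the relation to length was described for each subunit. Across the large subunit's 47 tested genes, log2 length and log2 difference had a Pearson r of 0.55 and a Spearman rho of 0.51 (r = 0.58 without the 2 genes farthest from the median length). Across 32 small subunit genes r was 0.02 and rho 0.07 (r = 0.14 without the 2 genes farthest from the median length). These include Rps20, whose annotated length exceeds its mm9 locus. Over all 79 members r was 0.31 and rho 0.33. Genes are not independent replicates, and all points share the same 2 merged libraries, so these values describe the points only, and a difference between subunits was not tested. Mean FPKM within the family gave a rho of -0.05. Rps27l, with a small difference at 499 bases, and Rps24, with a large one at 1613 bases, ran against the order of annotated lengths.

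Ribosomal proteins whose symbols the rule does not catch fell as well, in 3 of 3 listed. All 3 were in the top 10% by mean FPKM, where 55.8% of other genes fell with a median log2 difference of -0.30. Over all tested genes 19.1% fell. Fau, a small subunit protein made as a fusion to a ubiquitin-like domain, went from 2214 to 1665 FPKM. Gnb2l1, the scaffold protein Rack1 of the small subunit, went from 1249 to 905 FPKM and Rpl36al, a near copy of Rpl36a, from 552 to 395 FPKM. Their median log2 difference was -0.46.

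Genes that work with the ribosome were partly lower. Of 12 elongation and termination factors 6 fell and 0 rose, with a median of -0.29, and 6 of the 12 were in the top 10% by mean FPKM. Over all tested genes 19.1% fell, and over other genes of the top 10% 55.8%. Eef1e1, a cofactor of the tRNA synthetase complex, went from 423 to 238 FPKM, Eef1b2, an exchange factor, from 478 to 318 FPKM, Eef1a1, which delivers aminoacyl-tRNA, from 5043 to 3762 FPKM, and Eef2, which drives translocation, from 439 to 328 FPKM. Of 34 initiation factors 13 fell and 0 rose, with a median of -0.18, and 17 of the 34 were in that top 10%. Eif1b went from 1061 to 635 FPKM, and Eif3e and Eif3m, subunits of the eIF3 complex, from 751 to 476 FPKM and from 597 to 400 FPKM. Eif2b3, a subunit of the exchange factor for eIF2, went from 103 to 69.2 FPKM.

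The machinery that assembles ribosomes had a fallen share near that of all genes. Of 61 tested biogenesis factors 14 fell, 5 rose and 42 were not called, with a median of -0.01, beside 19.1% fallen and 18.7% risen over all tested genes. Only 8 of the 61 were in the top 10% by mean FPKM, where 55.8% of other genes fell, against 78 of the 80 members. Nop10, a short protein of the pseudouridylation complex, fell from 471 to 281 FPKM, Rpf2 from 128 to 85.6 FPKM and Rrp9 from 63.9 to 44.3 FPKM. Mdn1, a giant ATPase that remodels the large subunit precursor, rose from 0.310 to 0.616 FPKM. At these low levels its log2 difference of 0.80 became 0.30 with a pseudocount of 1, and it was not called by the normal p of the test statistic. Nucleolin (Ncl, 35.6 and 37.4 FPKM), fibrillarin (Fbl, 78.3 and 72.6 FPKM) and Nop56 (214 and 221 FPKM), abundant nucleolar proteins chosen after their values were seen, were not called. Npm1 (907 and 768 FPKM) and Nhp2 (251 and 194 FPKM) of the same list, more abundant in the control than these, fell. Of 15 genes of RNA polymerase I and the Myc family, which drive ribosomal RNA synthesis, 2 were in that top 10%. Among the 15, 6 fell and 0 rose, beside the 19.1% and 18.7% over all tested genes. These included Taf1d (65.1 to 40.3 FPKM), Mycn (19.9 to 12.8 FPKM), Polr1d (384 to 272 FPKM) and Myc (10.2 to 7.56 FPKM).

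Of 17 other TOP mRNAs and genes of the mTOR arm, 4 were in the top 10% by mean FPKM. Among the 17, 4 fell and 4 rose, with a median of 0.07. Both counts are near the background of 19.1% fallen and 18.7% risen, but they pool 2 kinds of gene. The 4 that rose, Tsc1, Eif4ebp1, Tsc2 and Eif4ebp2, all belong to the mTOR arm. The 4 that fell were the TOP mRNAs Tpt1 and Nap1l1 (224 and 179 FPKM), and Eef2k and Rheb. Tpt1, an abundant TOP mRNA, went from 1436 to 989 FPKM, and Eef2k, the kinase that restrains Eef2, from 5.25 to 3.75 FPKM. Tsc1, a brake on mTOR, rose from 0.846 to 1.28 FPKM and Eif4ebp1, a translation repressor that mTOR inactivates, from 8.44 to 11.9 FPKM. The TOP mRNAs Pabpc1 (37.7 and 34.6 FPKM) and Hnrnpa1 (253 and 273 FPKM), chosen after their values were seen, were not called.

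**Figure D4:**
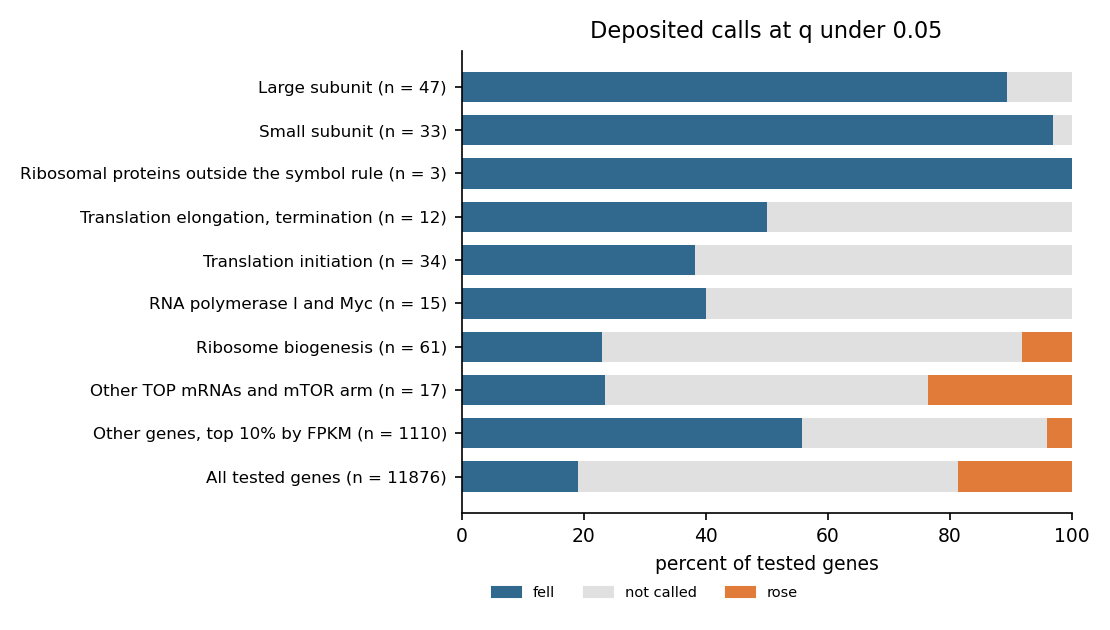
Share of tested genes that fell, were not called or rose at a deposited q under 0.05 (percent, stacked bars from 0 to 100) for both subunits, related gene lists, the other genes of the top 10% by mean FPKM and all tested genes. The ribosomal protein bars are almost wholly fallen, while biogenesis factors come close to all tested genes in their fallen share (14 of 61 against 19.1%). The lists differ in abundance: 78 of the 80 tested members but 8 of the 61 biogenesis factors were in that top 10%.

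Calls on single members depend on how the authors' statistic is read. The deposited p cannot go below 5e-05, and 63 members stood at that value. With a two-sided normal p computed from the deposited test statistic and adjusted over all tested genes, 41 of the 80 members were called lower, where 2.79% of all tested genes were. Ribosomal protein genes have many processed pseudogenes with near-identical sequence, and how reads with several matches were counted is not given in the sources used here, so single values may hold reads of copies. For 33 of the 83 members the locus overlapped another row, most often a small nucleolar RNA hosted in an intron.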

How the data were processed

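GFP-positive cortical cells were profiled by RNA sequencing in 3 Ptf1a and 2 GFP-only samples. Libraries were amplified from 2.1 to 7.8 ng of total RNA, per the labels' protocols. The build mm9 and the tools TopHat2 2.0.8, CASAVA 1.8.2, Cuffdiff and Cufflinks 2.1.1 come from the submitters' processing notes; annotation and parameters are not given in the sources used here. The authors merged each group's samples into FPKM values, per the file headers. Also the authors' are the deposited log2 fold, the test statistic (a signed score), the p-value and the q-value. The heading PIG was read as the Ptf1a construct, the only group beside GFP. Depth per sample and replicate spread are unknown here, so no interval is given.

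Log2 differences used a pseudocount of 0.1 and no minimum level. Calls were a deposited q under 0.05, and this q equals a Benjamini-Hochberg adjustment of the deposited p-values of tested genes, with a largest gap of 5.2e-07. The 6 related gene lists, the members and the marker lists were chosen with earlier results of these data known; transcript length was examined after seeing these values. Named genes were all risen members, the 12 largest called falls, the 6 most abundant members, paralog pairs, stalk proteins, Rpsa, Rpl5, Rpl11, Rps27a, untested members and, per list, the 4 largest called changes; further ones are values chosen later. Of the list genes, Noc2l, Eif3j, Map2, Hbb-b1 and Hba-a1 were not used here, and 2 further genes are not reported here. Coordinates are the authors' mm9 loci, with starts read as counting from 0 and printed counting from 1. Promoters are RefSeq's on GRCm38.p6 (250 bases before to 50 after each start). Functions were tested on simulated data. Python 3.11.15, pandas 2.3.3, numpy 2.4.6, scipy 1.17.1 and matplotlib 3.10.9 were used.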

Additional observations from a re-analysis of the deposited data

How the results depend on the processing

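The count of 74 fallen members was 68 at a q under 0.01 and 76 at a q under 0.1. It stayed at 74 with a minimum of 1 or of 10 FPKM. Without paralogs and tissue-restricted forms it was 73 when Rps4y2 was kept, and 72 of 76 when Rps4y2 was left out too. The count was 36 when a 1.5-fold change was also required, a filter that can only lower it. With the normal p of the test statistic it was 41. That p reads the same statistic in another way than the deposited p and is not stricter by construction. Rpl13, with a test statistic of -1.89, had a deposited p of 5e-05 in the authors' test and a q of 0.333 by the normal p. The reason for this gap was not tested. The count of 0 risen members became 1 (Rpl7l1) at a q under 0.1. The median log2 difference of -0.58 moved by under 0.01 with either other pseudocount and was -0.57 when centred on all tested genes. It was -0.26 when centred on the top 10% by mean FPKM, -0.29 with both groups rescaled to the same total over all rows, and, in alternatives chosen after seeing the data, -0.26 with rescaling over tested rows and -0.28 when centred on the top 10% with members left out. Without members of up to 600 bases, also chosen after seeing the data, 55 of 59 fell and the median was -0.52. Rplp0, Rps4x and Rpsa, called as fallen, changed sign under these 4 scalings, in the order given above: Rplp0 to 0.0514, 0.0157, 0.0449 and 0.0278, Rps4x to 0.0682, 0.0326, 0.0617 and 0.0446, and Rpsa to 0.0550, 0.0193, 0.0485 and 0.0314; the cause is the scaling itself, since it adds nearly the same amount to every gene. Shares of summed FPKM over tested rows only were 22.6% and 18.6%. No paired analysis was possible because the table holds merged group values and its columns carry no replicate number; leaving out a replicate was not run for the same reason.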

Other observations

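Rows that carry ribosomal protein names but fall outside the symbol rule were also measured. Rpl34 has no row of its own in the table: a row shared between Rpl34 and Rpl34-ps1 went from 292 to 188 FPKM and the row of Rpl34-ps1 in the same locus from 2676 to 1422 FPKM, with log2 differences of -0.64 and -0.91, and both fell. Reads of the gene and of this copy cannot be told apart here. Rps19-ps3, a copy of Rps19 at another locus, fell from 25.3 to 9.47 FPKM (-1.41 ± 0.35, implied SE), beyond any tested member, while Rps19 itself fell by 0.41 on the log2 scale.

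The S6 kinase family, whose symbols resemble those of the members but which encodes protein kinases, had 2 of 10 genes called, both fallen, a share near the 19.1% over all tested genes: Rps6ka4 from 3.18 to 1.24 FPKM and Rps6kl1 from 21.4 to 11.7 FPKM. Rps6kb1, which phosphorylates ribosomal protein S6 downstream of mTOR, stood at 15.4 and 16.2 FPKM. The gene of its substrate, Rps6, went from 2533 to 1892 FPKM.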
